A study of Homo sapiens with 3 samples.

Results

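FOXA2 binding was examined around 5 genes that give the gut epithelium its regional identity: the homeobox genes PDX1, CDX1 and CDX2 and the zinc-finger genes GATA4 and GATA6. Each gene was taken with 50 kb on either side, which gave 4 intervals on hg19, since PDX1 and CDX2 lie side by side and share one. The intervals were 28444 to 28594 kb on chromosome 13 (PDX1 and CDX2), 149496 to 149615 kb on chromosome 5 (CDX1), 11511 to 11668 kb on chromosome 8 (GATA4) and 19699 to 19833 kb on chromosome 18 (GATA6), 560 kb in all. A FOXA2 peak belonged to an interval when its midpoint fell inside it. The intervals held 47 of the 63949 peaks of replicate 1 and 25 of the 26907 peaks of replicate 2.

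The data are chromatin immunoprecipitation sequencing (ChIP-seq) peak lists from Caco2, an established colorectal adenocarcinoma cell line grown in low-glucose medium with serum and a common stand-in for intestinal epithelial cells. The 2 replicate immunoprecipitations with a FOXA2 antibody were each called against an input library, which was itself not analysed here. No treatment or genetic change is named for any library, so no contrast between conditions exists, and expression of the genes was not measured. Replicate 1 held 26183147 tags (mapped sequence ends) and replicate 2 held 15756702, and nothing in the labels says whether they came from separate cultures.

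FOXA2 is a forkhead transcription factor that can bind DNA in compacted chromatin and acts early in the endoderm, the embryonic layer that forms the gut lining, liver and pancreas. PDX1, CDX1 and CDX2 belong to or derive from the ParaHox genes, relatives of the Hox genes: PDX1 is needed for the pancreas and is active in the duodenum, while CDX1 and CDX2 specify and maintain intestinal epithelium. GATA4 and GATA6 bind GATA sequences and act in stomach and intestine, GATA4 mainly in the proximal small intestine and GATA6 along its whole length. In mouse pancreatic cells, Foxa2 is known to bind control regions upstream of Pdx1.

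The promoters of CDX2 and GATA6 are shown because the RefSeq promoter table (GRCh38.p14) held these 2 of the 5 genes. Each has 250 bases before and 50 after the start, in the direction of transcription. They were also the genes with a FOXA2 site of both replicates within 1 kb of the transcription start. Capitals mark matches on either strand to any of 3 motifs. The forkhead motif was TGTTTAC, with TATTTAC as its second form. That of the GATA factors was AGATAA. The one for CDX factors was TTTATNG.
CDX2, chr13:27969266-27969565, minus strand: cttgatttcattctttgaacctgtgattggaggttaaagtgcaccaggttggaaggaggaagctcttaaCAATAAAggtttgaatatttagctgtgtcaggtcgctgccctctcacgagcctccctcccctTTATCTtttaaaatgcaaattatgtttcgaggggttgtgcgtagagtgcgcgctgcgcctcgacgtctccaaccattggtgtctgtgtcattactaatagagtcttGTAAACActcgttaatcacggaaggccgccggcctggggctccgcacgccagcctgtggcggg
GATA6, chr18:22169339-22169638, plus strand: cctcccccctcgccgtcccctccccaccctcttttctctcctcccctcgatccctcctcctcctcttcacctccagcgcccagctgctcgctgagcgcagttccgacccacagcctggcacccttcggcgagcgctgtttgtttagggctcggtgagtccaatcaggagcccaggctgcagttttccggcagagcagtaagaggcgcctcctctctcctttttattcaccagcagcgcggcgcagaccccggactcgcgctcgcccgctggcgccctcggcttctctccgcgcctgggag

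The CDX2 promoter held 1 match to each of the motifs, with no overlap between them. The forkhead match, GTAAACA on the printed strand, began 13 bases before the start, the GATA match (TTATCT) 119 bases before it and the CDX match (CAATAAA) 181 bases before it. Among 35116 promoters of the same length, 5.97% held the forkhead motif, 10.3% the GATA motif and 9.73% the CDX motif. The GATA6 window held none of these letters. GC content was 50.3% in the CDX2 window and 66.7% in the GATA6 window, against a median of 58.7% over all promoters. The share of promoters that hold every one of the motifs was not computed, and promoters were not matched by GC content. The peaks are on hg19 and these sequences on GRCh38.p14, so their exact overlap was not determined.

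A site found in both replicates, called shared here, is one where the peaks of the 2 lists have at least 1 bp in common, and it is given by its coordinates in replicate 1. Peak strength is the authors' score, the tags of a peak scaled to 10000000 tags per library and rounded. The intervals held 20 shared sites. In replicate 1, 42.6% of the interval peaks were shared (95% Wilson interval 29.5% to 56.7%), against a background of 38.1% over that whole list. In replicate 2, 80.0% of the interval peaks were shared (60.9% to 91.1%), against 90.5% of that whole list. Both list-wide values lie within the intervals' ranges, so the repeatability of these peaks was not distinguishable from that of the lists at this number of peaks.

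Averaged over the replicates, the score of the 20 shared sites had a median of 15.25 and quartiles of 9.5 and 43.5. For all 24345 shared sites the median was 14.5, with quartiles of 9.5 and 24.5. The typical site near these genes was thus of ordinary strength. The upper end differed in count: 5 of the 20, or 25.0%, had a mean score of at least 50, against 8.09% of all shared sites. That limit was chosen after the values were seen, and the difference was not tested. These 5 were 2 in the PDX1 and CDX2 interval, 1 in the CDX1 interval and 2 in the GATA6 interval. The PDX1 and CDX2 count rests in part on a site 54.5 bp inside that interval's limit.

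**Figure D1:**
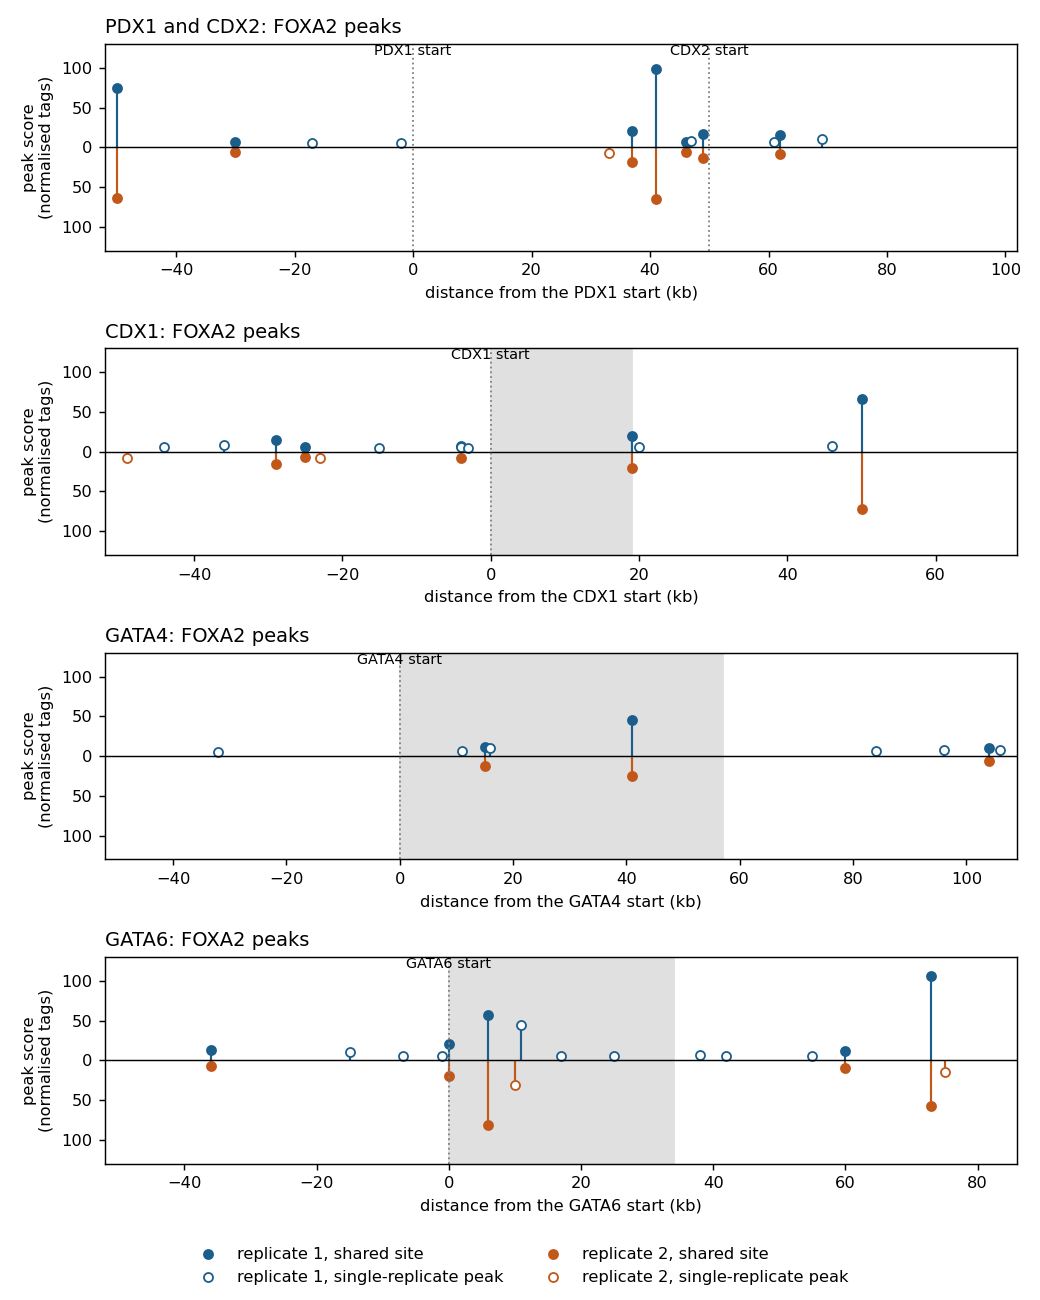
FOXA2 peaks in the 4 intervals by distance from the gene start (kb, rounded), with the score in normalised tags drawn upward for replicate 1 and downward for replicate 2. Filled points are shared sites, open points are peaks of a single replicate and grey bands are the gene spans of CDX1, GATA4 and GATA6. By mean score of the replicates, the strongest shared sites lie 9 kb from the CDX2 start, 50 kb from the CDX1 start, 41 kb from the GATA4 start and 73 kb from the GATA6 start, none of them at a start itself. In replicate 2 alone, the GATA6 site at 6 kb is higher, with 81 against 57.

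Gene starts and ends were taken from the intervals less their 50 kb flanks, so distances are good to about 1 kb. In the PDX1 and CDX2 interval the outer ends are the 2 starts, which face each other, since PDX1 is read on the plus and CDX2 on the minus strand. Within this interval, FOXA2 sites gathered around CDX2 rather than PDX1, while the 2 sites added with 100 kb each side both lay upstream of PDX1. Of the 7 shared sites, 4 lay from the CDX2 start to 13 kb along its direction of transcription, 1 lay 12 kb upstream of that start and 2 lay upstream of PDX1, at 30 and 50 kb.

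The strongest of them, on chromosome 13 at 28534993 to 28535115, 9 kb from the CDX2 start in its direction of transcription, scored 99 in replicate 1 and 65 in replicate 2 (82 ± 24.0, mean ± SD, n = 2). It ranked 527 in the replicate 1 list and 960 in that of replicate 2, and 647 among all shared sites by mean score. The site at the CDX2 start, 28543407 to 28543529, scored 17 in replicate 1 and 14 in replicate 2 (15.5 ± 2.12, n = 2). The start of CDX2, the master regulator of intestinal identity, therefore carried a site of about median strength, and the stronger one lay further along. Of the other sites on that side, the one at 28531154 to 28531276 scored 21 and 18 in replicates 1 and 2, and the one at 28540248 to 28540370 scored 7 and 6. On the far side of the CDX2 start, the site at 28555895 to 28556017 scored 16 in replicate 1 and 9 in replicate 2 (12.5 ± 4.95, n = 2). CDX2 thus had shared sites on both sides of its start, with most of the score on the side toward which it is transcribed. The interval gives no end for CDX2. Whether the sites on that side lie within the gene or beyond it was therefore not determined. URAD and FLT3 follow CDX2 in the RefSeq gene order, and whether the site at 28555895 falls in one of them was not determined.

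PDX1, which drives pancreatic and duodenal programmes, had no shared site near its start. The nearest, at 28463813 to 28463935, lay 30 kb upstream and scored 7 in replicate 1 and 6 in replicate 2. The peak closest to the PDX1 start was at 28491996 to 28492118, 2 kb upstream, and was called in replicate 1 alone with a score of 6; it is named after its value was seen. Of all replicate 1 peaks with that score, 12.2% were shared. A score of 5, the lowest in the replicate 2 list, stands for 7.88 tags, and weaker binding was not detectable there. In that list 99.8% of peaks scored 6 or more, so the shared site 30 kb upstream lay near the floor in replicate 2. The same holds for the shared sites at 28540248 near CDX2 and at 11665144 beyond GATA4, which also scored 6 there.

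The far PDX1 site was strong. At 28443994 to 28444116, 50 kb upstream of the PDX1 start, it scored 75 in replicate 1 and 64 in replicate 2 (69.5 ± 7.78, n = 2). Its midpoint fell 54.5 bp inside the interval's limit, so its membership rests on where the limit was set. The next shared site outside that limit, at 28441982 to 28442104, scored 16 in replicate 1 and 21 in replicate 2. GSX1, the remaining gene of the ParaHox cluster and a regulator of brain development, precedes PDX1 in the gene order. Peaks of a single replicate were weak here: the 5 of replicate 1 scored 5 to 10, with the highest at 28562818 to 28562940, and the 1 of replicate 2, at 28526820 to 28526970, scored 7.

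CDX1, a relative of CDX2 that lies outside the ParaHox cluster and is most active in the intestinal crypts, had 5 shared sites, with no site of either replicate inside the gene more than 1 kb from its ends. Its strongest, on chromosome 5 at 149595653 to 149595775, 50 kb from the start and beyond the gene's end, scored 66 in replicate 1 and 72 in replicate 2 (69.0 ± 4.24, n = 2). The site at the gene's end, 149564890 to 149565012, scored 20 in each replicate. SLC6A7, a proline transporter gene, and CAMK2A, a calcium-dependent kinase gene, follow CDX1 in the RefSeq gene order, and which gene the strongest site lies in or nearest to was not determined.

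Upstream of CDX1, toward the growth factor receptor gene PDGFRB, the shared sites were weaker. The one at 149516974 to 149517096, 29 kb from the start, scored 15 in each replicate. The one at 149521289 to 149521411, 25 kb from the start, scored 6 in replicate 1 and 7 in replicate 2. Closest to the start was 149541809 to 149541931, 4 kb upstream, with 7 in replicate 1 and 8 in replicate 2. The CDX1 start thus had low-scoring sites nearby, and the strong site of the interval lay at a distance. Of the peaks seen in a single replicate, the 7 of replicate 1 scored 5 to 8, with the highest at 149509699 to 149509821. Both peaks of replicate 2 alone, at 149496781 to 149496931 and at 149522595 to 149522745, scored 8.

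GATA4 had 3 shared sites, the fewest of the intervals with 50 kb each side, and 2 of them lay within its gene span. With 20 kb each side it had 2, as CDX1 and GATA6 did, and with 100 kb each side 6, as CDX1 did. It also had 3, as CDX1 did, when the replicate 1 list was limited to as many of its best-scored peaks as replicate 2 has. On chromosome 8, the site at 11601738 to 11601860, 41 kb into the gene, scored 45 in replicate 1 and 25 in replicate 2 (35.0 ± 14.1, n = 2). The site at 11576303 to 11576425, 15 kb into the gene, scored 11 in replicate 1 and 13 in replicate 2 (12 ± 1.41, n = 2). The remaining site, at 11665144 to 11665266 and 104 kb from the start, scored 10 and 6 in replicates 1 and 2, and lay on the side of NEIL2, a DNA repair gene, and FDFT1, the squalene synthase gene. Upstream of GATA4, replicate 1 alone had a peak, at 11528970 to 11529092, with a score of 5. All 6 single-replicate peaks of the interval were of replicate 1 and scored 5 to 10, the highest being 11576739 to 11576861. RefSeq gives GATA4 further transcripts, and starts other than the one implied by the interval were not considered.

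GATA6, which is expressed in the proliferating as well as the differentiated intestinal epithelium, combined a site at its start with strong sites inside and beyond the gene. On chromosome 18, the start site at 19749376 to 19749498 scored 21 in replicate 1 and 20 in replicate 2 (20.5 ± 0.707, n = 2). The site at 19755370 to 19755492, 6 kb into the gene, scored 57 in replicate 1 and 81 in replicate 2 (69.0 ± 17.0, n = 2). The site at 19821916 to 19822038, 73 kb from the start and beyond the gene's end, scored 106 in replicate 1 and 57 in replicate 2 (81.5 ± 34.6, n = 2). Which of the strong GATA6 sites came first therefore changed with the replicate: the distal one in replicate 1 and the one inside the gene in replicate 2. The weaker shared sites were at 19712511 to 19712633, 36 kb upstream, with 13 and 7 in replicates 1 and 2, and at 19809203 to 19809325, 60 kb downstream of the start, with 12 and 9.

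Another strong position inside GATA6 is missing from these counts because its peaks did not overlap. Replicate 1 had a peak of score 45 at 19759514 to 19759636, and replicate 2 had a peak of score 31 at 19759307 to 19759457. Their midpoints lay 193 bp apart, with 56 bp between the peaks. Such a case was rare: of the 3695 replicate 1 peaks with a score of at least 40, 1.16% overlapped no replicate 2 peak, and 1.0% overlapped none but had one with its midpoint within 500 bp. With midpoints within 500 bp taken as shared, GATA6 had 6 shared sites. The other peaks of replicate 1 alone scored 5 to 10, and replicate 2 alone had a peak of score 15 at 19823587 to 19823737, 1685 bp from the strongest replicate 1 peak of the interval.

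GATA6 was flanked by further FOXA2 sites beyond its interval. Between 50 and 100 kb from the gene there were 8 more shared sites, 6 before it and 2 after it, which brought GATA6 to 13 with 100 kb each side. The strongest of the 8, at 19678678 to 19678800 and 70 kb upstream of the start, scored 60 in replicate 1 and 55 in replicate 2 (57.5 ± 3.54, n = 2). The other sites had mean scores of 10.0 to 19. MIB1, a ubiquitin ligase of Notch signalling, precedes GATA6 in the RefSeq gene order, and whether these sites lie in it was not determined. The same extension added 2 sites for PDX1 and CDX2, 1 for CDX1 and 3 for GATA4, with mean scores of 5.0 to 18.5. Those for PDX1 and CDX2 lay 52 and 80 kb upstream of PDX1, and none was added on the CDX2 side.

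Several weak peaks sat beside a shared site. The intervals held 5 pairs of replicate 1 peaks with midpoints under 1 kb apart, and in each pair 1 peak was shared and the other was not. Over the whole replicate 1 list this was so in 46.1% of 4684 such pairs. The closest pairs were 419 bp apart upstream of CDX1, 436 bp apart inside GATA4 and 584 bp apart near CDX2, all above the 300 bp at which replicate 2 peaks were kept separate, per the file headers.

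**Figure D2:**
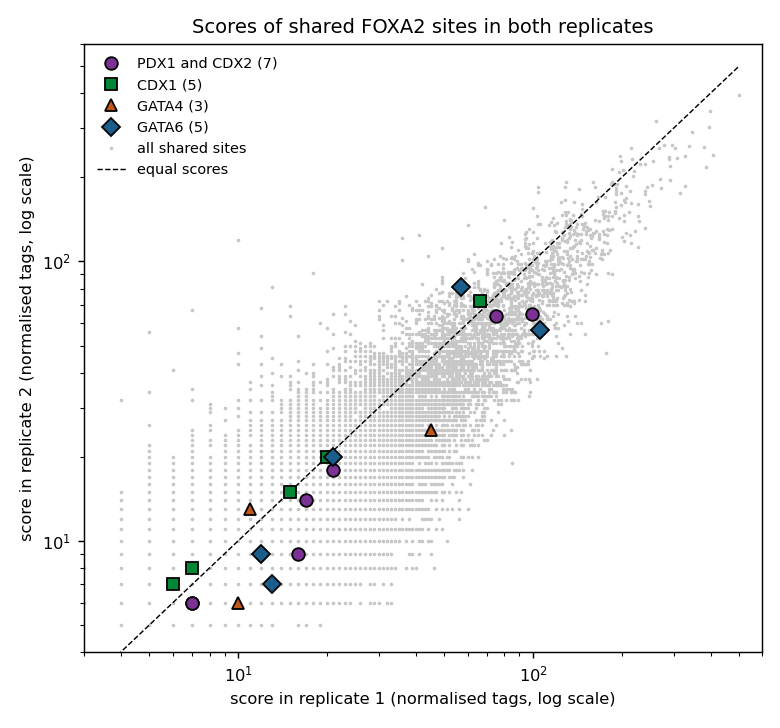
Scores of the 20 shared sites in replicate 1 (horizontal) and replicate 2 (vertical), in normalised tags on log scales, coloured by interval over all 24345 shared sites in grey, with a dashed line of equal scores. The interval sites lie within the cloud of all shared sites. The CDX1 sites lie on or above the line, and those of PDX1 and CDX2 lie below it.

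Of the 20 shared sites, the same 6 had the highest scores in both replicates, in a different order. The highest 2 of each replicate had no site in common, the highest 3 had 1 and the highest 4 had 3. The median ratio of the replicate 1 to the replicate 2 score was 1.17 over the 20 sites, a log2 ratio of 0.22 with an SD of 0.43, against 1.20 over all shared sites, a log2 ratio of 0.26 with an SD of 0.62. All 7 sites of the PDX1 and CDX2 interval scored higher in replicate 1. None of the 5 CDX1 sites did, with 2 equal and 3 higher in replicate 2. Over all shared sites, 63.7% scored higher in replicate 1. The summed scores of the shared sites were 242 in replicate 1 and 182 in replicate 2 for PDX1 and CDX2, but 114 and 122 for CDX1. Whether the intervals differ in this ratio was not tested.

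Counting error alone was set against these ratios by turning scores back into approximate tags. The 95% interval of the ratio held the list's median of 1.20 at 15 of the 20 sites. It lay above that median at 3 of them, against 11.7% of all shared sites, and below it at 2, against 9.3% of all shared sites. With so few sites these counts do not set the intervals apart from the list. Those above were the strongest CDX2 site, with a ratio of 1.52 (1.21 to 1.94), the strongest GATA4 site, with 1.80 (1.26 to 2.69), and the distal GATA6 site, with 1.86 (1.46 to 2.38). Those below were the site inside GATA6, with 0.704 (0.549 to 0.894), and the distal site of the CDX1 interval, with 0.917 (0.723 to 1.18). Tags that are copies of one molecule, and the different peak widths of the lists, 123 bp and 151 bp, are not part of these intervals.

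**Figure D3:**
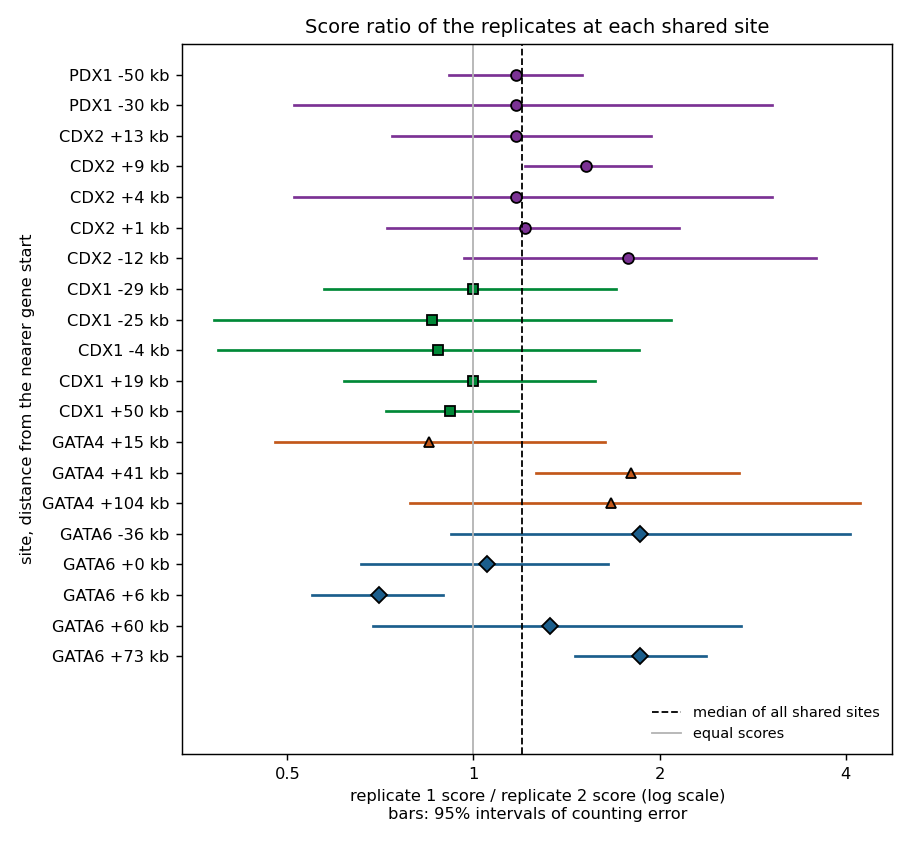
Ratio of the replicate 1 to the replicate 2 score (log scale) at each of the 20 shared sites, named by the distance in kb from the nearer gene start, with 95% intervals of counting error. The dashed line is the median of all shared sites, 1.20. The bars of 5 sites do not reach it, among them the GATA6 sites at 6 kb and 73 kb, which fall on opposite sides.

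To show how common such site numbers are, the genome was divided into windows of each interval's length, and those with a peak of either replicate were counted. The PDX1 and CDX2 interval held 7 shared sites in 150 kb, and 3.0% of 14554 windows held as many or more. CDX1 had 5 in 119 kb, reached by 5.89% of 17157 windows, and GATA6 had 5 in 134 kb, reached by 7.26% of 15780 windows. GATA4 had 3 in 157 kb, a number reached by 25.0% of 14097 windows. The mean was 1.67 sites per window of 150 kb and 1.73 per window of 157 kb. The order of the first 3 depends on the setting. Without the site at its limit, with the intervals shortened by 1 kb at each end, PDX1 and CDX2 came to 5.01%. Counted from the peaks of replicate 1 alone, the values were 5.07% for PDX1 and CDX2, 2.44% for CDX1, 1.6% for GATA6 and 14.6% for GATA4. From those of replicate 2 alone they were 2.34%, 2.33%, 3.05% and 27.8% in that order. GATA4 had the highest percentage in each of these settings. With 100 kb each side and windows of that length, 0.609% of windows held the 13 sites of GATA6 or more. For PDX1 and CDX2, with 9 sites, the value was 4.03%, for CDX1, with 6, 10.3%, and for GATA4, with 6, 13.2%. The windows were not centred on genes, and gene content was not matched, so this places the intervals among windows and is not a test.

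By strength, a shared site with a mean score of at least 82, that of the strongest CDX2 site, was present in 4.13% of windows of 150 kb. For GATA6 the value was 3.9% of windows at a mean score of at least 81.5, for CDX1 5.21% at 69, and for GATA4 18.9% at 35. Both the PDX1 and CDX2 interval and the GATA6 interval held 2 shared sites with a mean score of at least 50. This was the case in 1.98% of windows of 150 kb and in 1.79% of windows of 134 kb. The PDX1 and CDX2 value rests on including the site that lies 54.5 bp inside that interval's limit. The limit of 50 was chosen after the values were seen.

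**Figure D4:**
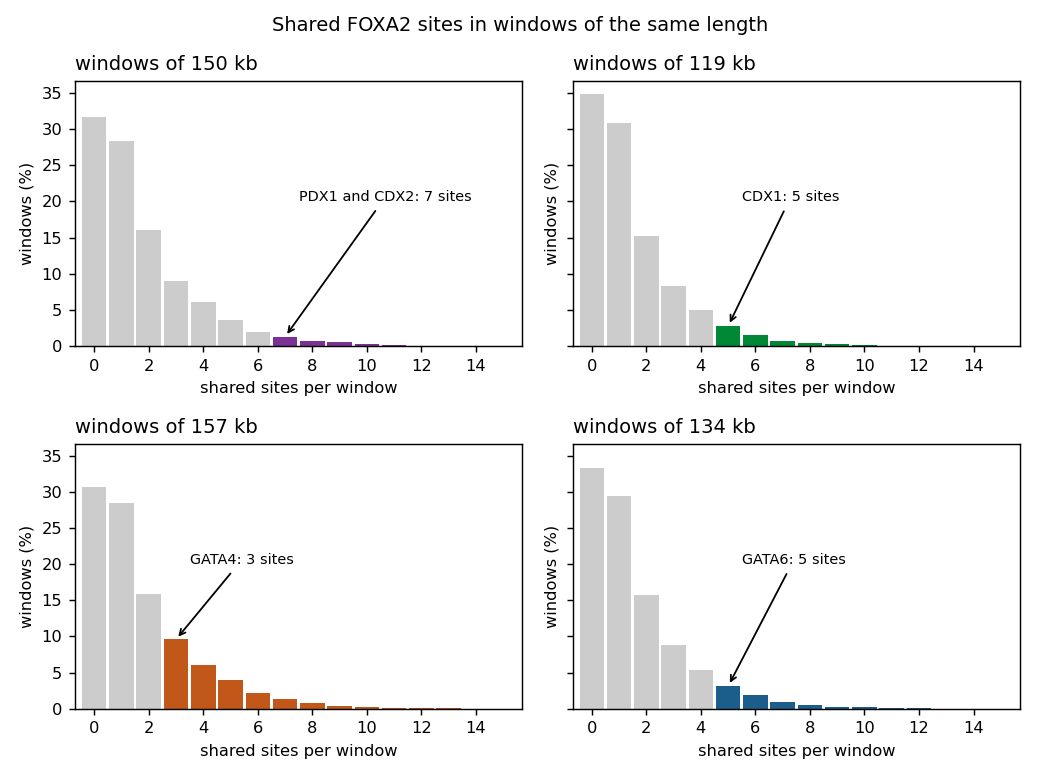
Percentage of windows (vertical) by number of shared FOXA2 sites (horizontal), for windows of the length of each interval that hold a peak of either replicate. Coloured bars are windows with at least as many shared sites as the interval, which arrows mark: 7 for PDX1 and CDX2, 5 for CDX1, 3 for GATA4 and 5 for GATA6.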

How the data were processed

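The submitters' processing notes name hg19 as the genome build, Bowtie 1.0.0 and, for HOMER, version 1.2. Peaks were called with HOMER findPeaks in factor style in each replicate alone against input, with a 4-fold excess and a Poisson p-value of 0.0001, per the file headers. The score that the authors deposited is a whole number. Its sum in tags came within 0.45% (replicate 1) and 0.20% (replicate 2) of the headers' tags in peaks, so it was read as tags scaled to 10000000 per library. In tags, each unit is worth 2.62 (replicate 1) or 1.58 (replicate 2).

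The genes, intervals and comparisons were chosen with earlier results of these data known. Shared sites overlap by at least 1 bp. Shares have 95% Wilson intervals. Score ratios have 95% exact binomial (Clopper-Pearson) intervals on approximate tags. Both cover counting error only. Windows ran from the first base of each chromosome. No test between conditions was possible. Every shared site is named, and of single-replicate peaks the highest per interval and replicate. No hg19 gene annotation was used here, so related genes fixed for comparison were not analysed here. The overlap procedure was checked on copies of replicate 1 peaks moved a short way and on random positions. The window procedure was checked on a few set points. These checks show only that the procedures count as intended and support no result given here. Coordinates are 1-based. Software was pandas 2.3.3, scipy 1.17.1 and numpy 2.4.6 under Python 3.11.15, with matplotlib 3.10.9 for plots. The alternatives were the overlap rule, score limits, list length, flank size, window grid and single replicates.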

Additional observations from a re-analysis of the deposited data

How the results depend on the processing

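Of the alternatives, 50 stayed within 1.5 times of a count or within the error of a value and 26 did not. The 50 include the score of each strongest site in a single replicate. At the same site, such a score always lies within the SD of the 2 replicates, so it shows nothing about stability. Asking for a score of at least 10 in each list left 4 shared sites for PDX1 and CDX2, 3 for CDX1 and 3 for GATA6, and raised the shared percentage of replicate 1 interval peaks to 60.0%, against 59.0% of that whole list under the same limit. The best-scored replicate 1 peaks, as many as replicate 2 has, left 3 for CDX1. With 20 kb each side, CDX1, GATA6 and GATA4 had 2 each. With 100 kb each side, GATA4 had 6 and GATA6 had 13. Counts from a single replicate ran from 8 to 12 for PDX1 and CDX2, 7 to 12 for CDX1, 3 to 9 for GATA4 and 7 to 14 for GATA6. The percentage of windows with as many ran from 2.34% to 5.07%, 2.33% to 2.44%, 14.6% to 27.8% and 1.6% to 3.05% in the same order. Taking 100 kb each side and windows of that length, it was 4.03%, 10.3%, 13.2% and 0.609%. Shortening the intervals by 1 kb at each end removed the site at the PDX1 limit, and the percentage became 5.01%. The last 2 settings were chosen after seeing the data. No paired analysis was possible because the design holds a single immunoprecipitation group. With 7 sites or fewer per interval, the loss of 1 or 2 weak peaks changes a count, and peaks below the lowest scores, 3 and 5, cannot be seen.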
